A study of Mus musculus with 78 samples.

Results

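The hypoxia and glycolysis response genes are 10 genes that cells commonly switch on when oxygen is short: Slc2a1, Hk2, Pfkfb3, Pgk1, Ldha, Bnip3, Egln3, Adm, Ankrd37 and Car9. They were taken as every probe set of the array whose only annotated gene symbol was one of these names, which gave 17 of 45101 probe sets, or 10 of 18194 genes with a probe set of their own. The brightest probe set stood for each gene. The question was whether antibodies against the VEGF pathway raised these genes in skin that was growing new vessels.

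Flank tissue was profiled on 78 Affymetrix mouse expression arrays from female athymic nude mice (Crl:NU(NCr)-Foxn1nu), 4 to 6 weeks old, which lack a working thymus. Arrays fell into G6-treated tissue at days 5, 20 and 60 (G6 at 10 mpk, 8 arrays each), DC101-treated tissue at days 5, 20 and 60 (DC101 at 20 mpk, with 8, 8 and 6 arrays), untreated tissue at days 5, 20 and 60 (8 arrays each) and control tissue at day 0 (8 arrays). Antibodies were given into the peritoneum; DC101 is a rat antibody to mouse VEGFR2, and the labels class both among antibodies to VEGF receptors without a target for G6 alone. The protocol attached to every group describes an adenovirus carrying VEGF-A164 (Ad-VEGF-A164) put into the skin of ear and flank. The labels do not say whether control flank was injected, there was no empty-vector group, and they do not say whether the day counts from injection or from treatment. At least 5 animals per group are mentioned with no link from array to animal. Where arrays come from the same animal, p-values are too small.

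Cells read oxygen through the HIF transcription factors. With oxygen present, prolyl hydroxylases of the Egln family mark the HIF alpha subunits for destruction; without it, HIF alpha pairs with Arnt and binds a short DNA core in the promoters of its target genes. Those targets bring glucose in, run glycolysis to lactate, clear mitochondria, buffer acid and signal to vessels, and several of them, Ldha, Hk2, Pgk1 and Bnip3 among them, are also abundant in skeletal muscle.

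That core is the feature the members share outside their expression, so the promoters of the 4 members that changed in most antibody comparisons are shown. Each is the 250 bases before the transcription start of the RefSeq gene (GRCm38.p6), with the HIF core, ACGTG or GCGTG read on either strand (CACGT or CACGC on the printed strand), in capitals. Bnip3 lies at chr7:138909507-138909756 on the minus strand, Slc2a1 at chr4:119108495-119108744 on the plus strand, Egln3 at chr12:54203875-54204124 on the minus strand and Adm at chr7:110627407-110627656 on the plus strand.
Bnip3: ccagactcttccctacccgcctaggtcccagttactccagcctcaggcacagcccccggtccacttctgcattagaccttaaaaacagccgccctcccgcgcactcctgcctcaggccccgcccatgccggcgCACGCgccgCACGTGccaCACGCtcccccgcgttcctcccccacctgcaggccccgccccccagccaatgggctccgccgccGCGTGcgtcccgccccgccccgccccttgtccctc
Slc2a1: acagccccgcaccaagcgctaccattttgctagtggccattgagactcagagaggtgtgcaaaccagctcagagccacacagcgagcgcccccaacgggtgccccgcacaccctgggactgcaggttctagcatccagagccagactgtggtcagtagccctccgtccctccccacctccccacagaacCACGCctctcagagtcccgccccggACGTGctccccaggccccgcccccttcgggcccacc
Egln3: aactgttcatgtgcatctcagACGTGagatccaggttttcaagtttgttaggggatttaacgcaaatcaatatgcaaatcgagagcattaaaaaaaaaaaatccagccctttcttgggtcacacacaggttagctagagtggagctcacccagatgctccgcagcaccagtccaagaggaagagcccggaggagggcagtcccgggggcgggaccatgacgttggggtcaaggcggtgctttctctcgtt
Adm: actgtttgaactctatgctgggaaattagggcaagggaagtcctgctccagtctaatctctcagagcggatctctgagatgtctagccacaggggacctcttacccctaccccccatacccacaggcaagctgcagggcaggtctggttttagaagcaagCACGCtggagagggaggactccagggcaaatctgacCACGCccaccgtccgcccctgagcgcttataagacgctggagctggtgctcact

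Bnip3 carries 5 matches, of which 2 overlap on opposite strands as CACGTG, Slc2a1 carries 2, Adm 2 and Egln3 1. All 10 members had at least 1 match within the window of 250 bases before to 50 bases after the start, in 12 of 12 windows, since Ldha and Pfkfb3 have 2 starts each. Of all 32851 windows of the same length, 43.8% held one, and of all 27025 genes 46.7% did. In the 100 bases around the start, 6 of 10 members held a match, against 23.7% of genes. A match describes the letters and shows no binding, and the members include genes known for HIF sites.

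**Figure D1:**
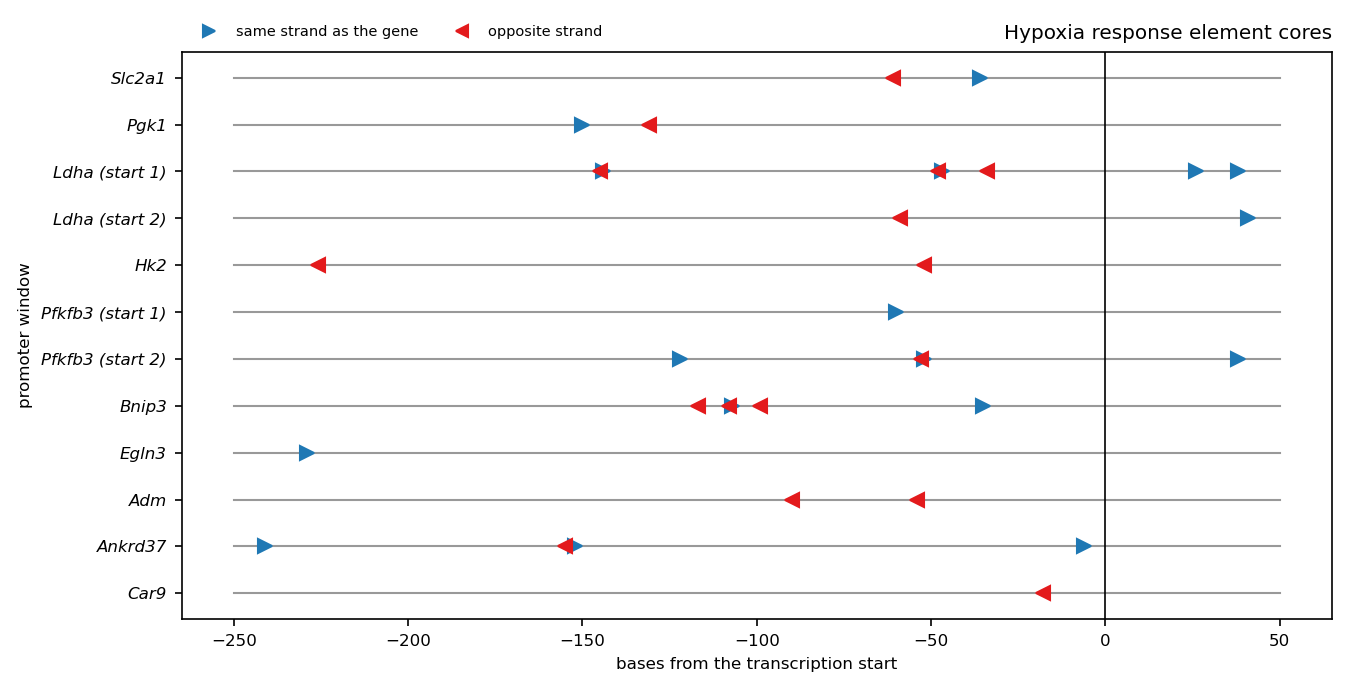
Position of each HIF core match (x axis, bases from the transcription start) in the promoter window of each member (rows; Ldha and Pfkfb3 have 2 starts), as right-pointing blue markers on the gene's strand and left-pointing red markers on the opposite strand. Every one of the 12 windows holds a match, and per gene the matches run from 1 in Egln3 and Car9 to 9 over the 2 starts of Ldha.

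Levels are log2(signal + 16), where the signal is the deposited array intensity, and differences are in log2 units from 1 limma fit over all arrays, with SE and Benjamini-Hochberg adjusted p over 26696 probe sets; an adjusted p below 0.05 was called. Of the 17 member probe sets 16 passed the filter on low values, all but the second one of Pfkfb3, and all 10 genes were tested. Array medians ran from 454.85 to 582.58 on the signal scale. All 10 skeletal muscle markers, 7 of 8 epidermal keratinocyte markers (those with a probe set of their own) and 8 of 8 endothelial markers were measured above the filter level, so the flank samples held skin and muscle together. In bulk tissue, fewer cells of a type and less RNA per cell cannot be told apart. The mean level of 7 hair follicle markers ranged from 7.44 to 15.30 over the untreated arrays of day 20. It ranged from 9.54 to 13.67 with G6 at day 5, against 13.36 to 15.20 in untreated tissue. The part of hair follicle content in the results was not tested. Arrays are named by the running number in their label, the last 2 control arrays as Normal_101 and Normal_102. An earlier examination of these data had set apart untreated day 20 arrays 51 and 52, G6 day 5 arrays 13 and 14 and untreated day 60 array 79. Of these, arrays 52 (0.91) and 79 (0.92) had the lowest median correlation within their own groups, untreated tissue at days 20 and 60. Below 0.9 lay 4 other arrays (G6 day 60 arrays 86, 87 and 88 and DC101 day 20 array 72). The 2 sets are called below the 5 arrays set apart earlier and the 4 arrays of low correlation, and leaving out the second set was chosen after the data were seen.

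Antibody groups were first compared with untreated tissue of the same day. G6 raised 4 of 10 members at day 5 (Slc2a1, Ldha, Hk2 and Bnip3), where 31% of all probe sets changed, 14.2% rose and 16.8% fell. At day 20 it raised 3 (Slc2a1, Bnip3 and Egln3) and lowered Adm, against 7.89% of all probe sets changed, 2.87% risen and 5.02% fallen. At day 60 it raised Egln3 alone among the members, against 10.5% changed, 3.23% risen and 7.29% fallen. DC101 raised 2 members at day 5 (Bnip3 and Adm; 11.7% of all changed, 4.68% rose and 7.07% fell), 1 at day 20 (Egln3; 6.38% changed, 1.94% rose and 4.45% fell) and 5 at day 60 (Slc2a1, Pfkfb3, Bnip3, Adm and Ankrd37; 12.4% changed, 5.53% rose and 6.87% fell). The median difference of the 10 members was 0.39, 0.41 and 0.15 with G6 and 0.32, 0.28 and 0.52 with DC101 at days 5, 20 and 60, while the median of all probe sets lay between -0.02 and 0.01. Each antibody set at a day shares its untreated arrays with the other.

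**Figure D2:**
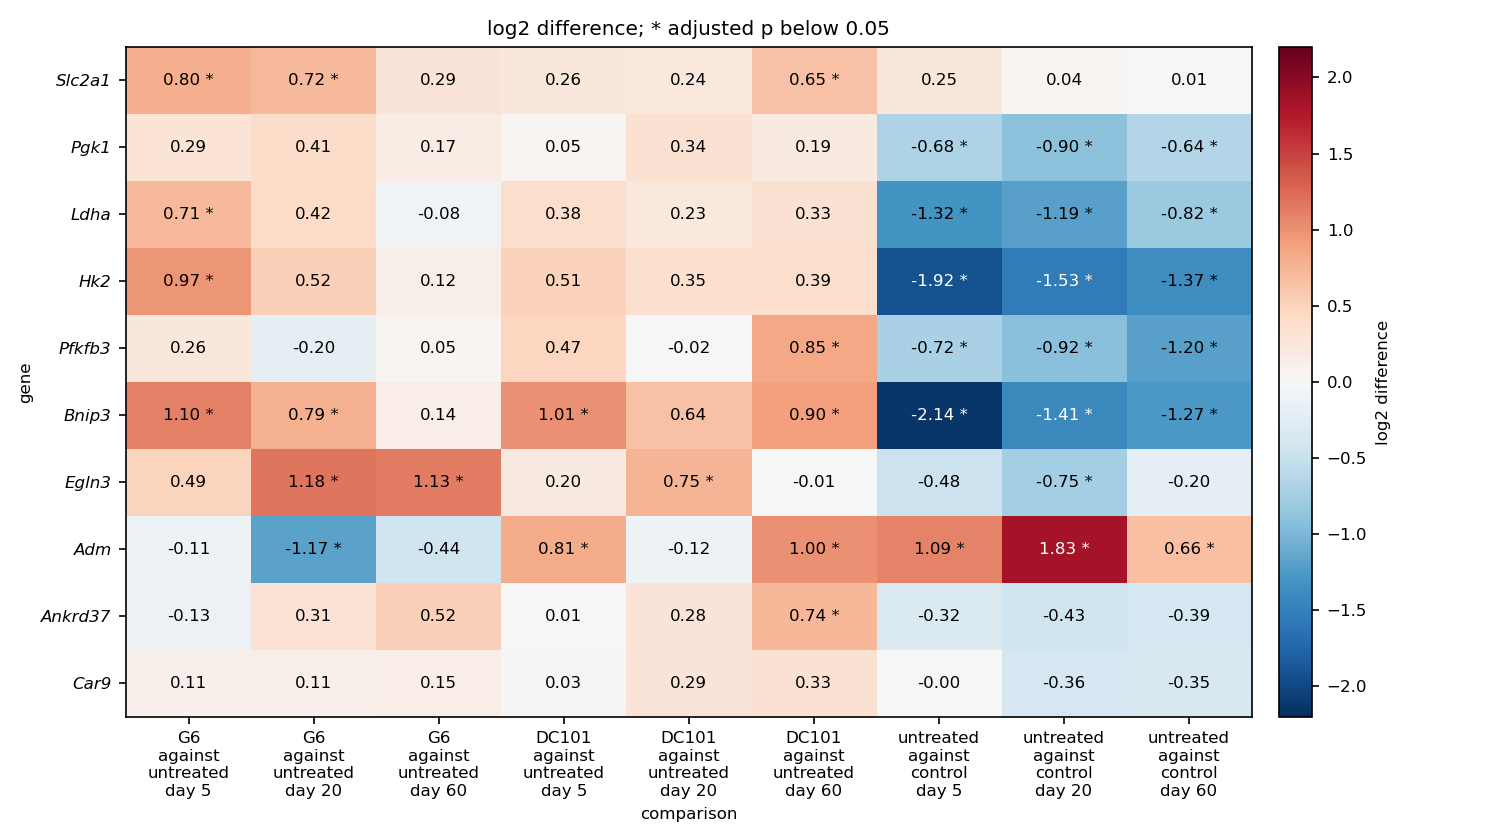
Log2 difference (colour and number) of each member (rows) in 9 comparisons (columns), with an asterisk where the adjusted p was below 0.05. Most cells of the 6 antibody columns are positive, up to 1.18 for Egln3 with G6 at day 20, while the 3 columns of untreated against control run to -2.14 for Bnip3, and Adm alone is positive and called there.

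Slc2a1 encodes the glucose transporter GLUT1. Its lowest, median and highest levels were 12.33, 12.88 and 13.60 with G6 at day 5, against 11.64, 12.08 and 12.49 in untreated tissue. At day 20 they were 11.72, 12.59 and 13.50 with G6, against 11.62, 11.89 and 12.24 in untreated tissue. At day 60 they were 12.21, 12.45 and 13.11 with DC101, against 11.24, 11.77 and 12.66 in untreated tissue. These groups overlapped in part, with the antibody arrays high. G6 raised Slc2a1 by 0.80 at day 5 (SE 0.21, limma adjusted p = 0.0022, above the untreated mean in 8 of 8 arrays). At day 20 G6 raised it by 0.72 (SE 0.21, adjusted p = 0.023, 6 of 8 arrays). DC101 raised it by 0.65 at day 60 (SE 0.23, adjusted p = 0.048, 6 of 6 arrays). In the remaining antibody comparisons the differences were 0.29 (G6, day 60, 95% interval -0.13 to 0.71), 0.26 (DC101, day 5) and 0.24 (DC101, day 20), none called. The other 2 probe sets of Slc2a1 gave the same calls in all 6, with rises of 0.53 to 0.75 with G6 at day 5.

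The order of the 10 Slc2a1 means ran from 12.91 with G6 at day 5 to 11.86 in control, and no neighbours in that order were further apart than the larger of their 2 SDs. The epidermal keratinocyte markers, measured for the barrier layer of skin, were high beside it in both called G6 comparisons: their mean level ranged from 14.42 to 15.89 with G6 at day 5, against 13.22 to 15.08 in untreated tissue, and from 14.19 to 15.93 with G6 at day 20, against 11.96 to 15.40 in untreated tissue. They were not high with DC101 at day 60, where they ranged from 12.88 to 15.28 (mean 14.15), against 13.10 to 15.49 (mean 14.36) in untreated tissue. With that level as a covariate, an alternative chosen after the data were seen, the Slc2a1 difference was 0.54 at day 5, still called (adjusted p = 0.041), and 0.50 at day 20, no longer called (adjusted p = 0.19). The day 20 call was also lost without the 5 arrays set apart earlier (0.69, adjusted p = 0.15), in a fit of the 2 groups alone (adjusted p = 0.094), and without any 1 of G6 arrays 59, 61 and 63 or untreated array 52 (0.59 to 0.68, adjusted p from 0.066 to 0.082). The DC101 call at day 60 was lost without any 1 of 10 of the 14 arrays, DC101 arrays 89, 90, 91, 92 and 94 and untreated arrays 73, 76, 77, 78 and 79 (0.53 to 0.71, adjusted p from 0.051 to 0.15). It was also lost with no filter (adjusted p = 0.06), with quantile normalization or 1 probe set per gene (adjusted p = 0.051 each), with adjacent arrays averaged (adjusted p = 0.072) and without the 5 arrays set apart earlier (0.63, adjusted p = 0.084).

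**Figure D3:**
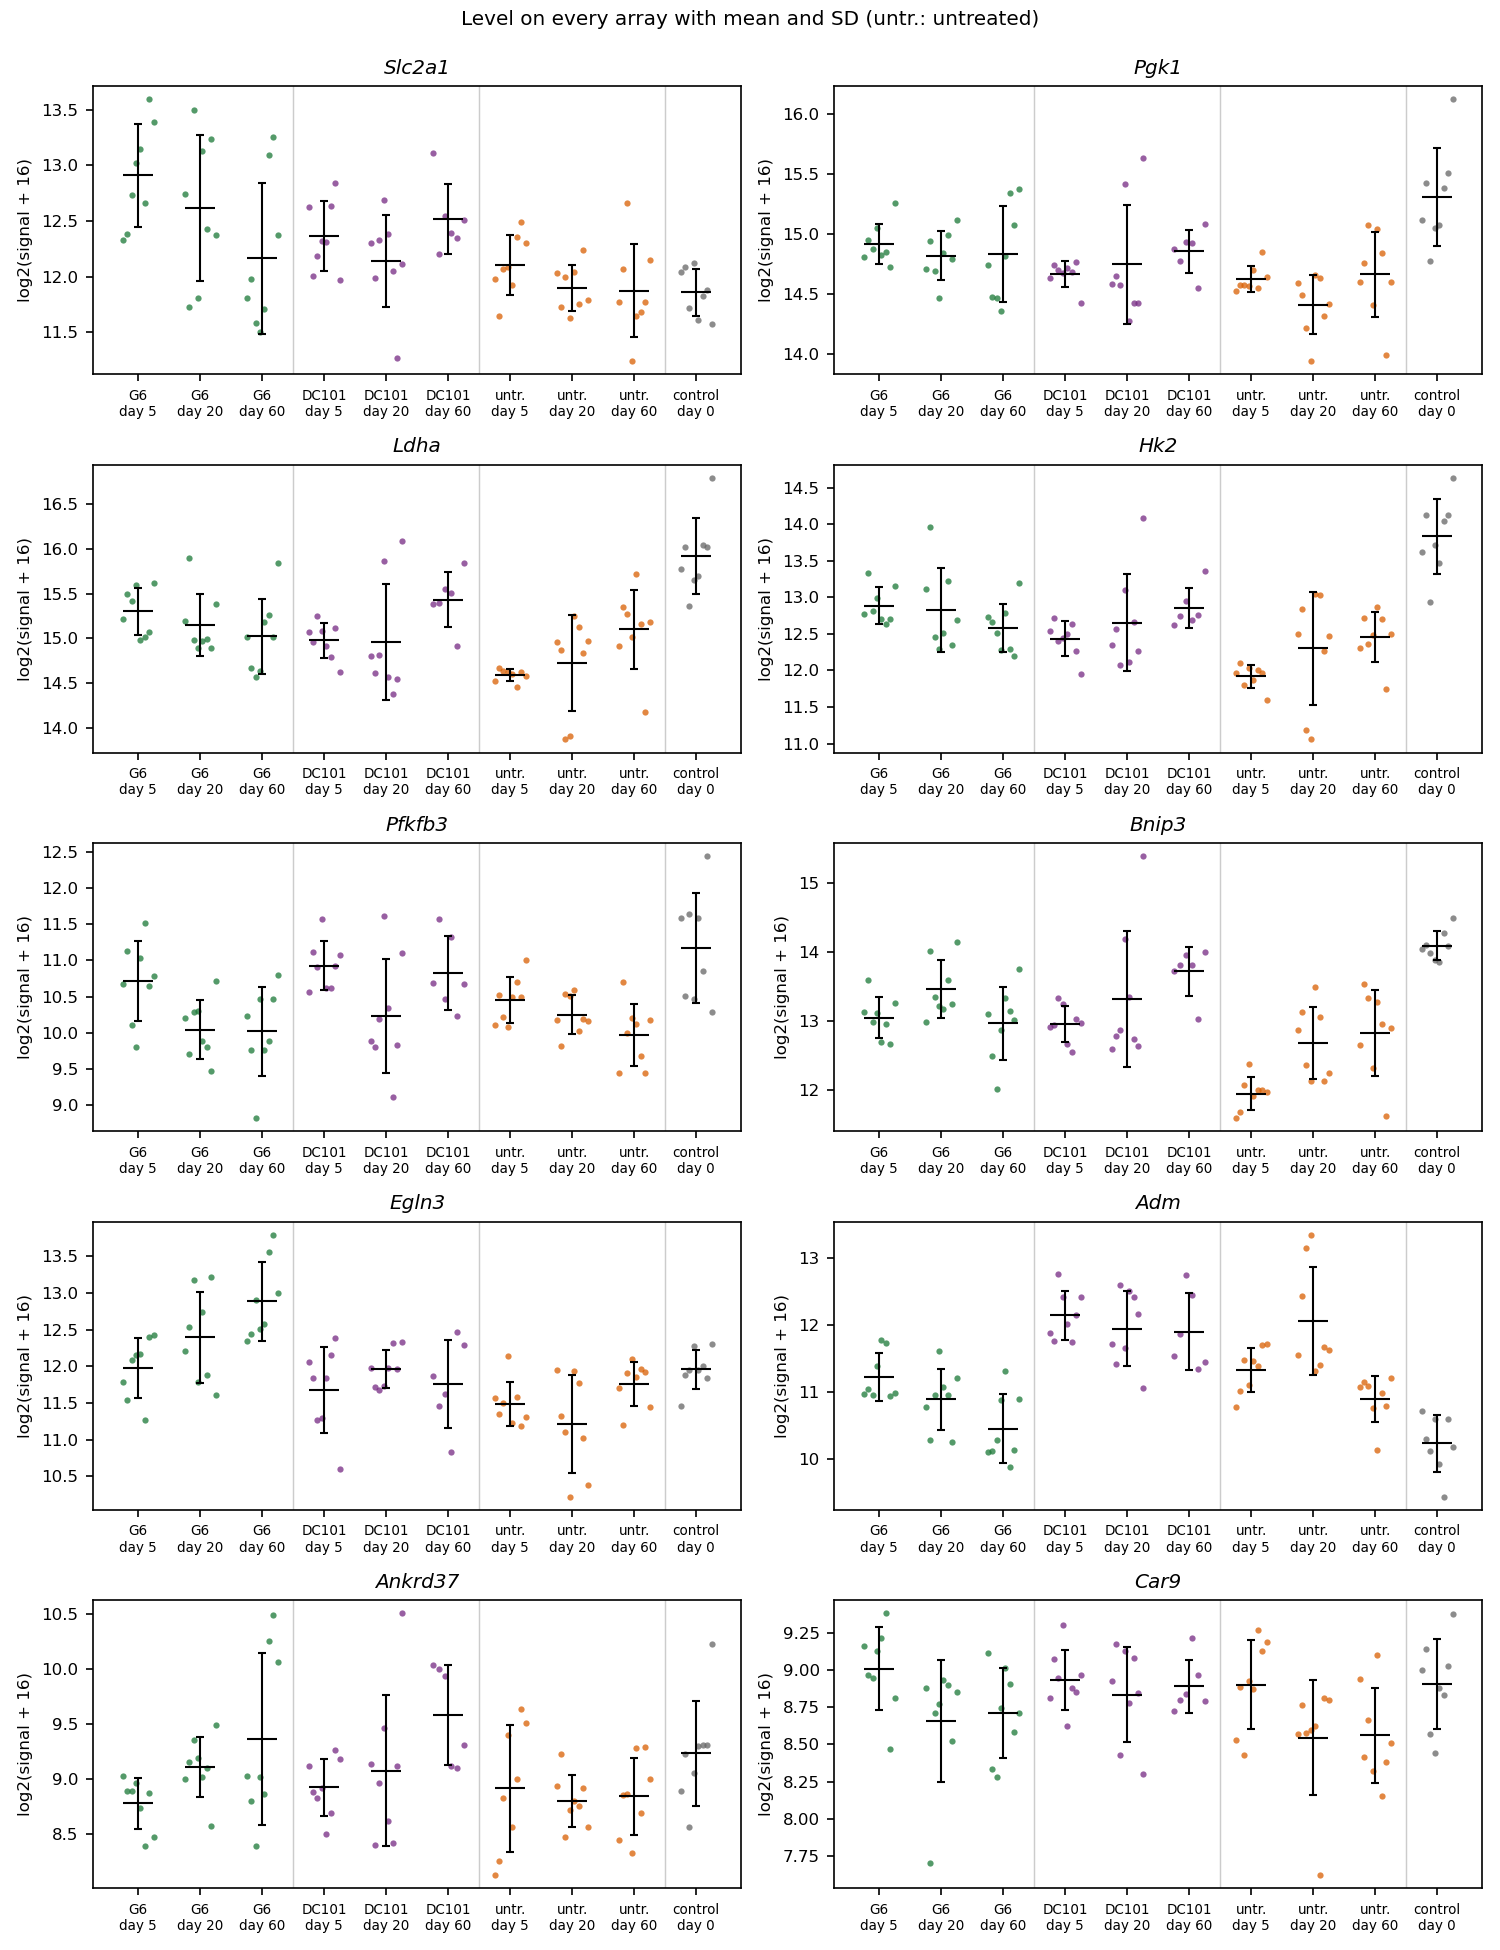
Level (y axis, log2(signal + 16)) of each member on every array, by group (x axis: G6, DC101, untreated at days 5, 20 and 60, then control), with points for arrays and bars for the mean ± SD. Slc2a1 and Egln3 reach their highest group means with G6, Adm with DC101, and Pgk1, Ldha, Hk2, Pfkfb3 and Bnip3 in control tissue.

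Hk2, hexokinase 2, traps glucose in the cell as the first step of glycolysis. Its lowest, median and highest levels were 12.64, 12.79 and 13.33 with G6 at day 5, against 11.60, 11.97 and 12.10 in untreated tissue, so the groups did not overlap (11% of all probe sets did not). The rise was 0.97 (SE 0.23, adjusted p = 6e-04, 8 of 8 arrays). Ldha makes lactate from pyruvate and stood at 14.99, 15.32 and 15.62 with G6 at day 5, against 14.46, 14.62 and 14.67 in untreated tissue, also without overlap. It rose by 0.71 (SE 0.20, adjusted p = 0.0036, 8 of 8 arrays). In the other 5 antibody comparisons neither gene was called, with differences of 0.12 to 0.52 for Hk2 and -0.08 to 0.42 for Ldha. With DC101 at day 5 they were 0.51 for Hk2 (adjusted p = 0.13) and 0.38 for Ldha (adjusted p = 0.2). Both were called there with array weights (adjusted p = 0.014 and 0.013) and in a fit of the 2 groups alone (adjusted p = 0.0017 and 0.002). Neither was called in G6 against DC101 at day 5. Pgk1, which makes ATP in the later steps of the pathway, differed by 0.29 at day 5 and 0.41 at day 20 with G6 (adjusted p = 0.12 and 0.074) and was not called with either antibody. Without G6 array 60 or untreated array 54 the day 20 difference of Pgk1 was 0.44 to 0.46 (adjusted p from 0.039 to 0.048), and it was called without the 4 arrays of low correlation (0.41, adjusted p = 0.029). Pfkfb3 makes the activator that speeds the committing step of glycolysis. With DC101 at day 60 its levels were 10.24, 10.69 and 11.57, against 9.45, 10.07 and 10.70 in untreated tissue, partly overlapping, a rise of 0.85 (SE 0.28, adjusted p = 0.032, 6 of 6 arrays). It was lost without DC101 array 90 or 92 or untreated array 73, 78 or 79 (0.71 to 0.81, adjusted p from 0.055 to 0.11), with the muscle level as a covariate (0.78, adjusted p = 0.06) and without the 5 arrays set apart earlier (0.78, adjusted p = 0.07). Its differences in the other 5 antibody comparisons lay between -0.20 and 0.47, none called.

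Skeletal muscle markers moved beside the glycolytic genes with G6 at day 5. Their mean level ranged from 14.74 to 16.13 with G6 at day 5, against 13.71 to 14.54 in untreated tissue, with no overlap. With DC101 at day 5 it ranged from 14.30 to 15.50 (mean 15.14, against 14.14 in untreated tissue). At day 20 the means were 15.01 with G6 and 14.90 with DC101, against 14.95 in untreated tissue. At day 60 they were 13.70 with G6 and 15.67 with DC101, against 14.78. Hk2 and Ldha were not called in these other comparisons. With the muscle level as a covariate, G6 at day 5 gave 0.57 for Hk2 (adjusted p = 0.014), 0.76 for Bnip3 (adjusted p = 0.007), 1.01 for Slc2a1 (adjusted p = 0.00013) and 0.39 for Ldha (adjusted p = 0.07), so only the Ldha call was lost. With G6 at day 20 the same covariate gave a call of Hk2 (0.50, adjusted p = 0.049). Across 78 arrays, which share tissue make-up, the gene closest to Ldha was Tpi1 (Pearson r = 0.98, of 14696 genes), another glycolytic enzyme. For Hk2 it was Cyc1 (r = 0.93) and for Pgk1 it was Pkm (r = 0.91), a respiratory chain subunit and a glycolytic enzyme. Ldha correlated with Hk2 at r = 0.82 and with Pgk1 at r = 0.87 within groups, and Slc2a1 with Ldha at 0.10, given as description only.

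**Figure D4:**
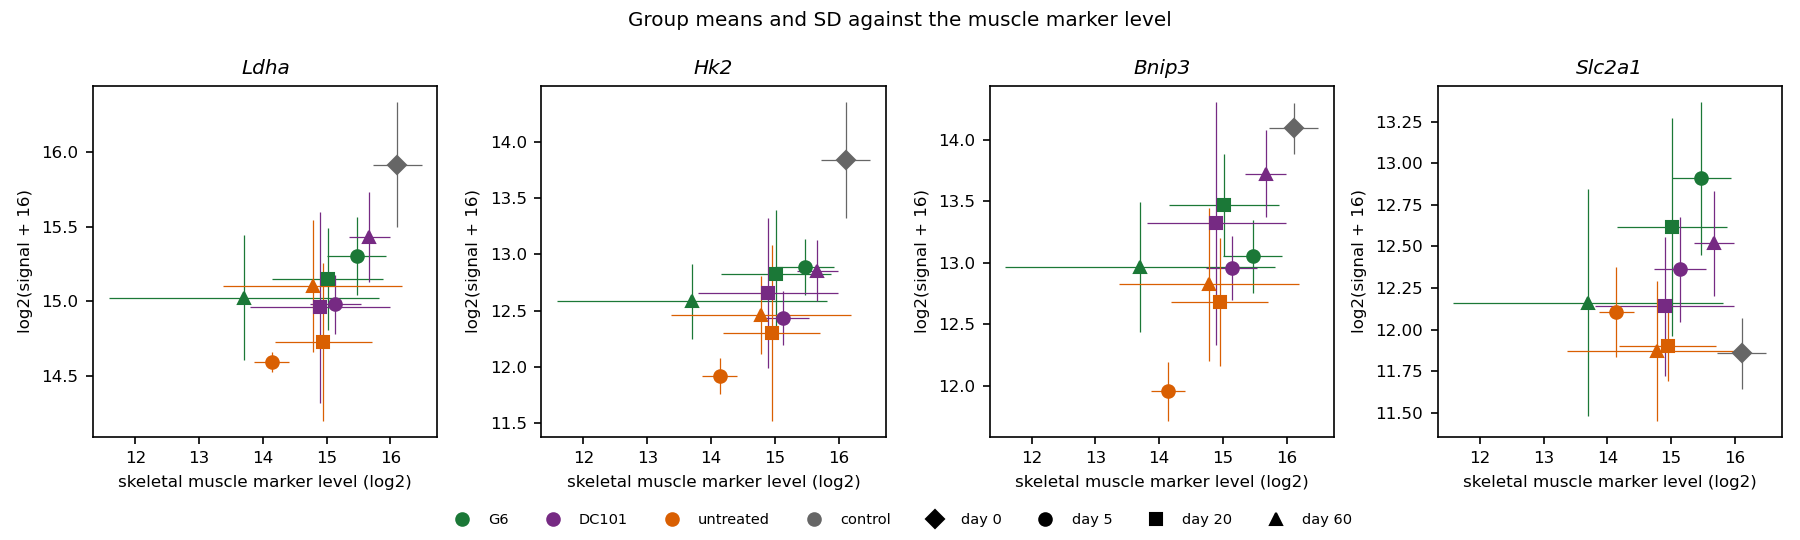
Group means of Ldha, Hk2, Bnip3 and Slc2a1 (y axis, log2(signal + 16)) against the mean level of 10 skeletal muscle markers (x axis, log2), with SD bars, colours for treatment and marker shapes for day. Untreated tissue at day 5 is low in Ldha, Hk2 and Bnip3 and second lowest in muscle (14.14), and control is highest in all 4 of these quantities (muscle 16.11) but lowest in Slc2a1.

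Bnip3 sits on mitochondria and marks them for removal. Its lowest, median and highest levels at day 5 were 12.67, 13.05 and 13.59 with G6 and 12.56, 12.96 and 13.33 with DC101, against 11.60, 11.99 and 12.37 in untreated tissue. Neither antibody group overlapped untreated tissue, as 11% of all probe sets did not with G6 and 3.38% did not with DC101. The rises were 1.10 with G6 (SE 0.25, adjusted p = 0.00033) and 1.01 with DC101 (SE 0.25, adjusted p = 0.0032), in 8 of 8 arrays each, and neither was lost in any of the alternatives run. With G6 at day 20 Bnip3 stood at 12.99, 13.31 and 14.14, against 12.14, 12.62 and 13.49 in untreated tissue, a rise of 0.79 (SE 0.25, adjusted p = 0.033, 8 of 8 arrays). With DC101 at day 60 it stood at 13.03, 13.81 and 14.001, against 11.62, 12.93 and 13.53 in untreated tissue, a rise of 0.90 (SE 0.26, adjusted p = 0.017, 6 of 6 arrays). These 2 pairs of groups overlapped. The remaining differences were 0.14 with G6 at day 60 and 0.64 with DC101 at day 20 (adjusted p = 0.1).

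The day 20 rise of Bnip3 with G6 was lost without any 1 of G6 arrays 58, 63 and 64 or untreated arrays 51, 52, 55 and 56 (0.69 to 0.82, adjusted p from 0.05 to 0.11), and without the 5 arrays set apart earlier it was 0.64 (adjusted p = 0.24). It was lost too with adjacent arrays averaged (adjusted p = 0.068) and in a fit of the 2 groups alone (adjusted p = 0.076). The DC101 rise at day 60 was lost without untreated array 79 (0.73, adjusted p = 0.066) and with the muscle level as a covariate (0.67, adjusted p = 0.051). With the RNA ratio covariates, described beside the day 60 results, it was 0.39 (adjusted p = 0.63). Untreated Bnip3 without array 53 gave a DC101 difference of 0.76 at day 20 (adjusted p = 0.045). The gene closest to Bnip3 over the 78 arrays was Ndufb9 (r = 0.89), a subunit of respiratory complex I.

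Egln3 is one of the prolyl hydroxylases that mark HIF alpha and is itself a HIF target. With G6 its lowest, median and highest levels were 11.61, 12.37 and 13.22 at day 20, against 10.22, 11.21 and 11.95 in untreated tissue. At day 60 they were 12.34, 12.74 and 13.79 with G6, against 11.20, 11.88 and 12.10 in untreated tissue. The day 20 groups overlapped and the day 60 groups did not, as 0.281% of all probe sets did not. G6 raised Egln3 by 1.18 at day 20 (SE 0.23, adjusted p = 0.00066) and by 1.13 at day 60 (SE 0.23, adjusted p = 0.00089), in 8 of 8 arrays each. At day 5 the difference was 0.49 (adjusted p = 0.099), while the second probe set was called there at 0.85 (adjusted p = 0.002), as at day 20 (0.96, adjusted p = 0.0036) and day 60 (0.87, adjusted p = 0.0065).

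Leaving out G6 array 14 gave a day 5 difference of 0.60 for Egln3 (adjusted p = 0.049). Without G6 day 60 arrays 86, 87 and 88 and DC101 array 72 together, the day 60 rise with G6 was 0.79 (adjusted p = 0.028), over 5 G6 arrays. The day 20 rise with G6 was not called in a fit of the 2 groups alone (adjusted p = 0.06). With DC101, Egln3 stood at 11.67, 11.97 and 12.33 at day 20, against 10.22, 11.21 and 11.95 in untreated tissue, overlapping, a rise of 0.75 (SE 0.23, adjusted p = 0.039, 8 of 8 arrays). That call was lost without any 1 of DC101 arrays 69, 70 and 72 or untreated arrays 50, 51, 52, 55 and 56 (0.60 to 0.76, adjusted p from 0.051 to 0.15), and the second probe set differed by 0.28 (adjusted p = 0.5). It was lost without the 5 arrays set apart earlier (0.56, adjusted p = 0.3), without the 4 arrays of low correlation (0.69, adjusted p = 0.056), with the RNA ratios as covariates (0.61, adjusted p = 0.14), with adjacent arrays averaged (adjusted p = 0.12) and in a fit of the 2 groups alone (adjusted p = 0.11). At days 5 and 60 the DC101 differences were 0.20 and -0.01. The gene closest to Egln3 was Ide (r = 0.89), an insulin-degrading protease.

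Adm encodes adrenomedullin, a secreted peptide that acts on vessels, and its calls ran in both directions. At day 5 its lowest, median and highest levels were 10.94, 11.01 and 11.77 with G6 and 11.75, 12.08 and 12.76 with DC101, against 10.77, 11.42 and 11.71 in untreated tissue. At day 20 they were 10.25, 10.95 and 11.61 with G6 and 11.06, 11.94 and 12.60 with DC101, against 11.32, 11.64 and 13.34 in untreated tissue. At day 60 they were 9.88, 10.21 and 11.32 with G6 and 11.35, 11.70 and 12.75 with DC101, against 10.14, 11.03 and 11.20 in untreated tissue. DC101 groups were high at days 5 and 60, without overlap with untreated tissue (3.38% and 2.51% of all probe sets did not overlap), and G6 tissue was low at day 20, with some overlap.

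DC101 raised Adm by 0.81 at day 5 (SE 0.24, adjusted p = 0.017, 8 of 8 arrays) and by 1.002 at day 60 (SE 0.26, adjusted p = 0.0066, 6 of 6 arrays), and the day 20 difference was -0.12. G6 lowered it by 1.17 in log2 at day 20 (the difference was -1.17, SE 0.24, adjusted p = 0.001, 8 of 8 arrays), with -0.11 at day 5 and -0.44 at day 60, neither called. In the direct test of G6 against DC101, Adm was lower with G6 at every day, by -0.92 at day 5 (adjusted p = 0.0049; of all probe sets 13.8% changed, 5.65% higher and 8.2% lower with G6), -1.05 at day 20 (adjusted p = 0.028; 0.371% changed, 0.202% higher and 0.169% lower) and -1.44 at day 60 (adjusted p = 1.4e-05; 37.9% changed, 18.1% higher and 19.8% lower). It was the only member called at days 5 and 20. The day 20 call was lost without any 1 of 8 arrays, DC101 arrays 67, 68, 69 and 70 and G6 arrays 57, 59, 61 and 63 (-1.09 to -0.96, adjusted p from 0.05 to 0.11), with the keratinocyte level as a covariate (-0.97, adjusted p = 0.056), with adjacent arrays averaged (adjusted p = 0.18) and in a fit of the 2 groups alone (adjusted p = 0.28). Without G6 array 9 or 10, Slc2a1 was higher with G6 than with DC101 at day 5 (0.62 to 0.63, adjusted p from 0.04 to 0.048), as it was without the 4 arrays of low correlation (0.55, adjusted p = 0.035).

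The antibody effects on Adm also differed between days. The G6 effect changed by -1.06 between day 5 and day 20 (SE 0.34, adjusted p = 0.035; 9.14% of all probe sets changed, 4.35% lower), and the DC101 effect by 1.12 between day 20 and day 60 (SE 0.35, adjusted p = 0.021; 17.2% changed, 9.02% higher). The first was lost without any 1 of 10 of the 32 arrays, G6 day 5 arrays 12, 13 and 14, untreated day 5 arrays 1 and 2, G6 day 20 arrays 58 and 63 and untreated day 20 arrays 50, 51 and 52 (-1.04 to -0.88, adjusted p from 0.052 to 0.078). The second was lost without untreated day 20 array 52 or DC101 day 60 array 91 or 92 (0.94 to 1.01, adjusted p from 0.05 to 0.064), and without DC101 day 20 array 68 Pfkfb3 was called beside it (1.07, adjusted p = 0.033). No other member was called in the 4 tests between days. In limma's tests of the G6 effect at day 60 against day 20 and the DC101 effect at day 20 against day 5, where 0.0862% and 2.02% of all probe sets were called, 0 members were called and 1 in each had an unadjusted p below 0.05. Without the 5 arrays set apart earlier the G6 difference of Adm at day 20 was -0.78 (adjusted p = 0.095) and the changes between days were -0.49 for G6 (adjusted p = 0.36) and 0.71 for DC101 (adjusted p = 0.17). In a fit of the 2 groups alone the day 20 difference with G6 was not called (adjusted p = 0.063). With adjacent arrays averaged the DC101 rises at days 5 and 60 were not called (adjusted p = 0.094 and 0.058). The second Adm probe set gave the same calls in the 6 antibody comparisons.

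Endothelial markers, the lining cells on which Adm acts, ranged in mean level from 10.65 to 12.44 with G6 at day 20, against 11.64 to 13.69 in untreated tissue. At day 60 they ranged from 10.70 to 11.36 with DC101, against 10.14 to 11.79 in untreated tissue, and at day 5 from 12.18 to 13.004 with DC101, against 12.64 to 13.24 in untreated tissue. With G6 at day 5 they ranged from 10.44 to 11.72, against 12.64 to 13.24 in untreated tissue, with no overlap, while Adm differed by -0.11 there. Their part in the result was not tested. The gene closest to Adm was Ebf1 (r = 0.80), a transcription factor.

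Ankrd37, a small ankyrin-repeat protein gene that responds to HIF, was called in 1 antibody comparison, DC101 at day 60. Its levels there were 9.10, 9.62 and 10.04, against 8.33, 8.86 and 9.29 in untreated tissue, overlapping, a rise of 0.74 (SE 0.25, adjusted p = 0.04, 6 of 6 arrays). It was lost without DC101 array 89, 90 or 91 or untreated array 73, 76 or 78 (0.65 to 0.72, adjusted p from 0.062 to 0.11), with no filter (adjusted p = 0.051) and with adjacent arrays averaged (adjusted p = 0.14). Ankrd37 group means lay between 8.78 and 9.58, with 8.85 in untreated tissue at day 60. The lowest untreated array of that day (8.33) was below the filter level of 8.44. Car9, carbonic anhydrase 9, is often used as a marker of hypoxia. Its group means lay between 8.55 and 9.01, near the filter level of 8.44, and its differences from untreated tissue were 0.03 to 0.33, none called with either antibody. The 95% interval of the largest, DC101 at day 60, ran from -0.01 to 0.67.

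At day 60 the state of the RNA differed between the groups. The ratio of 3' to 5' signal for Actb, which rises as RNA breaks down, was 1.17 to 1.56 with DC101, against 1.58 to 2.57 in untreated tissue, with no overlap, and 1.81 to 3.03 with G6. With both 3' to 5' ratios (Actb, Gapdh) in the model, no member was called in either antibody comparison at day 60. The differences were then 0.96 for Egln3 with G6 (adjusted p = 0.083), and with DC101 1.04 for Adm (adjusted p = 0.059), 0.72 for Slc2a1 (adjusted p = 0.17), 0.59 for Pfkfb3 (adjusted p = 0.43), 0.39 for Bnip3 and 0.36 for Ankrd37 (adjusted p = 0.64). At day 5 the Gapdh ratio was 0.8999 to 1.55 with G6, against 0.907 to 1.10 in untreated tissue, and the 4 members called with G6 and the 2 called with DC101 at that day were called with the covariates too. In G6 against DC101 at day 60, Egln3 was higher with G6 by 1.13 (adjusted p = 3e-04), and Pfkfb3 (-0.80, adjusted p = 0.017), Bnip3 (-0.76, adjusted p = 0.019) and Adm were lower, and with those covariates none of the 4 was called. They were then 0.76 for Egln3 (adjusted p = 0.42), -0.52 for Pfkfb3 (adjusted p = 0.67), 0.04 for Bnip3, with the sign turned (adjusted p = 0.98), and -1.34 for Adm (adjusted p = 0.13). With the muscle level as a covariate Bnip3 was -0.25 (adjusted p = 0.49), Pfkfb3 was -0.65 (adjusted p = 0.1) and Slc2a1 was called (-0.65, adjusted p = 0.032). Without the 4 arrays of low correlation, 7 members were called, the same 4 and Slc2a1 (-0.80, adjusted p = 0.0036), Ldha (-0.62, adjusted p = 0.017) and Ankrd37 (-0.76, adjusted p = 0.0046). Without G6 array 83 the Bnip3 difference was -0.62 (adjusted p = 0.063), Pfkfb3 was lost without that array or DC101 array 90 or 92 (-0.71 to -0.63, adjusted p from 0.058 to 0.072), and without G6 array 88 Ldha was called (-0.52, adjusted p = 0.04), as it was with quantile normalization (-0.45, adjusted p = 0.043).

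Untreated tissue was then compared with control tissue, which asks how flank given no antibody differed from the day 0 flank. Of the 10 members 1 rose and 5 fell at day 5, 1 rose and 6 fell at day 20, and 1 rose and 5 fell at day 60. Of all probe sets 50.2%, 38.4% and 33% changed at days 5, 20 and 60; 26.5%, 22.1% and 17.1% rose and 23.6%, 16.3% and 15.9% fell. The median member difference was -0.58, -0.82 and -0.52, against 0.04, 0.07 and 0.07 for all probe sets. Adm was the one that rose at each day, and Pgk1, Ldha, Hk2, Pfkfb3 and Bnip3 fell at each day.

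Bnip3 showed the largest fall of the members. Its lowest, median and highest levels were 11.60, 11.99 and 12.37 in untreated tissue at day 5, against 13.85, 14.07 and 14.50 in control, a difference of -2.14 (SE 0.25, adjusted p = 2.6e-11). For Hk2 they were 11.60, 11.97 and 12.10, against 12.93, 13.88 and 14.64 in control, a difference of -1.92 (SE 0.23, adjusted p = 6.5e-11). For Ldha they were 14.46, 14.62 and 14.67, against 15.36, 15.89 and 16.79 in control, a difference of -1.32 (SE 0.20, adjusted p = 3.5e-08). In these 3 genes and Adm the day 5 groups did not overlap control (23.5% of all probe sets did not), and 8 of 8 arrays moved the same way. By day 60 the differences were -1.27 for Bnip3, -1.37 for Hk2 and -0.82 for Ldha. The Actb ratio at that day was 1.58 to 2.57 in untreated tissue, against 1.21 to 1.502 in control, with no overlap. With the RNA ratios as covariates the day 60 values were -0.77 for Bnip3 (adjusted p = 0.049), -0.40 for Ldha (adjusted p = 0.22) and -0.48 for Pgk1 (adjusted p = 0.051), so the Ldha and Pgk1 calls were lost. Pgk1 differed by -0.68, -0.90 and -0.64 and Pfkfb3 by -0.72, -0.92 and -1.20 at days 5, 20 and 60. Without control array Normal_101 the day 5 value of Pfkfb3 was -0.53 (adjusted p = 0.077). It was not called either with the muscle level (-0.56, adjusted p = 0.11), the RNA ratios (-0.40, adjusted p = 0.29) or the keratinocyte level (-0.54, adjusted p = 0.092) as covariates. The gene closest to Pfkfb3 over the 78 arrays was Pnpla2 (r = 0.76). Adipocyte markers had a mean level of 13.30 in control, against 11.29, 11.12 and 12.21 in untreated tissue at days 5, 20 and 60. Their part in the result was not tested.

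Adm stood at 10.77, 11.42 and 11.71 in untreated tissue at day 5, against 9.44, 10.24 and 10.71 in control, a rise of 1.09 (SE 0.24, adjusted p = 9.3e-05). It was 1.83 higher at day 20 (SE 0.24, adjusted p = 7.3e-09) and 0.66 higher at day 60 (SE 0.24, adjusted p = 0.027). The day 60 value was lost without control array 100 or untreated array 80 (0.55 to 0.62, adjusted p from 0.05 to 0.078), with the RNA ratios (0.61, adjusted p = 0.14) or the muscle level (0.61, adjusted p = 0.067) as covariates, with adjacent arrays averaged (adjusted p = 0.098) and on the second probe set of Adm (0.71, adjusted p = 0.13). Between days, untreated Adm rose by 0.73 at day 20 against day 5 (adjusted p = 0.023; 18.9% of all probe sets changed, 10.5% higher and 8.36% lower) and fell by 1.17 at day 60 against day 20 (adjusted p = 0.00016; 22.7% changed, 9.5% higher and 13.2% lower). Bnip3 rose by 0.73 at day 20 against day 5 (adjusted p = 0.027). Without the 5 arrays set apart earlier the day 20 rise of Adm was 0.34 (adjusted p = 0.34), its fall at day 60 was -0.76 (adjusted p = 0.029), and Hk2 was called at day 20 against day 5 (0.77, adjusted p = 0.006). Without untreated array 1, 51 or 52 the day 20 rise of Adm was 0.55 to 0.65 (adjusted p from 0.059 to 0.097), and without array 1, 2, 50, 53 or 54 that of Bnip3 was 0.61 to 0.69 (adjusted p from 0.051 to 0.082). Without array 49, 53 or 54, Egln3 was called at day 60 against day 20 (0.63 to 0.65, adjusted p from 0.036 to 0.046).

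Egln3 differed from control by -0.48, -0.75 and -0.20 at days 5, 20 and 60 and was called at day 20 (adjusted p = 0.0079), where it was -0.56 without the 5 arrays set apart earlier (adjusted p = 0.073). Without untreated array 4 its day 5 difference was -0.57 (adjusted p = 0.042). With the keratinocyte level as a covariate Egln3 was called at all 3 days (-0.85, -1.18 and -0.66). Its second probe set was called at all 3 days (-0.75, -0.79 and -0.58). Slc2a1 differed by 0.25, 0.04 and 0.01 and Ankrd37 by -0.32, -0.43 and -0.39, none called. Car9 was not called, although leaving out any 1 of control arrays 97 and 98 or untreated arrays 50, 55 and 56 at day 20, or control array 98 or untreated array 77 at day 60, gave -0.43 to -0.39 (adjusted p from 0.028 to 0.049). Quantile normalization called Car9 lower at both days, by -0.48 (adjusted p = 0.0077) at day 20 and by -0.43 (adjusted p = 0.02) at day 60. Muscle markers were lower beside the glycolytic genes, with a mean of 14.14 ± 0.27 in untreated tissue at day 5, against 16.11 ± 0.38 in control (SD, n = 8 each). With the muscle level as a covariate the Bnip3, Hk2 and Ldha differences at day 5 were -1.64, -1.32 and -0.85, all called.

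Because untreated arrays enter both sets of comparisons, antibody groups were also set directly against control. Slc2a1 was higher than control with G6 by 1.05 at day 5 (SE 0.21, adjusted p = 4e-05, 8 of 8 arrays, no overlap, as for 10.5% of all probe sets) and by 0.76 at day 20 (SE 0.21, adjusted p = 0.0037). With DC101 it was higher by 0.50 at day 5 (adjusted p = 0.045) and by 0.66 at day 60 (adjusted p = 0.031). With the keratinocyte level as a covariate none of these 4 was called: with G6 the day 5 value was 0.52 (adjusted p = 0.097) and the day 20 value 0.24 (adjusted p = 0.55), while with DC101 the day 5 value was 0.07 (adjusted p = 0.84) and the day 60 value 0.38 (adjusted p = 0.25). That level was 15.40 ± 0.56 with G6 at day 5, against 12.74 ± 0.81 in control. Egln3 was above control with G6 at day 60, by 0.93 (SE 0.23, adjusted p = 0.00073, no overlap, as for 8.2% of all probe sets), and with the 4 arrays of low correlation left out it was 0.59, with the adjusted p at 0.05 and not called. With the keratinocyte level as a covariate Egln3 was 0.37 with G6 at day 60 (adjusted p = 0.2), and it was called lower at day 5, by -0.75 with G6 (adjusted p = 0.016), against 0.02 without the covariate, and by -0.90 with DC101 (adjusted p = 0.0013). Adm was above control in 5 of the 6 antibody groups, by 0.66 to 1.91, and differed by 0.22 with G6 at day 60 (adjusted p = 0.47).

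Hk2 stayed below control in all 6 antibody groups (-0.95 to -1.40, each called), as did Pgk1 (-0.39 to -0.64). Ldha and Bnip3 were below control in 5 of 6. At day 60 with DC101, Ldha differed from control by -0.49 (adjusted p = 0.094) and Bnip3 by -0.37 (adjusted p = 0.35). Pfkfb3 was called lower in 3 groups, G6 at days 20 and 60 and DC101 at day 20. The numbers of members higher and lower than control were 2 and 4, 2 and 5, and 1 and 5 with G6 at days 5, 20 and 60, where 39.9%, 32.3% and 47% of all probe sets changed, 19.6%, 17.7% and 24.2% higher and 20.3%, 14.6% and 22.8% lower. With DC101 they were 2 and 4, 1 and 5, and 2 and 2, where 43.1%, 28.7% and 19.7% changed, 21.6%, 14.9% and 10.4% higher and 21.5%, 13.8% and 9.3% lower.

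Covariates ended some of these calls. With the keratinocyte level Pgk1 was not called with G6 at day 5 (-0.38, adjusted p = 0.11), G6 at day 20 (-0.48, adjusted p = 0.066) or DC101 at day 60 (-0.45, adjusted p = 0.064). Ldha was lost with G6 at day 5 (-0.59, adjusted p = 0.059), Bnip3 at day 20 with G6 (-0.40, adjusted p = 0.4) and DC101 (-0.61, adjusted p = 0.1), and Pfkfb3 at day 20 with G6 (-0.77, adjusted p = 0.089) and DC101 (-0.68, adjusted p = 0.078). With the RNA ratios 0 members remained called with G6 at day 60, where the limma differences were -0.82 for Hk2 (adjusted p = 0.16), -0.21 for Ldha (adjusted p = 0.74) and -0.34 for Bnip3 (adjusted p = 0.65). With G6 at day 5 the RNA ratios ended the calls of Pgk1 (-0.19), Ldha (-0.43), Bnip3 (-0.75) and Adm (0.57). With the muscle level Hk2 was -0.52 with G6 at day 60 (adjusted p = 0.044), while Ldha (-0.31, adjusted p = 0.2) and Bnip3 (-0.51, adjusted p = 0.12) were lost there.

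Single arrays decided further calls. Slc2a1 with DC101 was lost at day 5 without any 1 of control arrays 97, 99, 100, Normal_101 and Normal_102 or DC101 arrays 17, 20, 21, 22 and 23 (0.44 to 0.51, adjusted p from 0.053 to 0.1), and at day 60 without control array 99 or Normal_102 or DC101 array 89 or 91 (0.54 to 0.66, adjusted p from 0.05 to 0.11). For Pgk1 the call was lost with DC101 at day 60 without control array 96, 100, Normal_101 or Normal_102 or DC101 array 89, 90, 91, 92 or 93 (-0.46 to -0.33), with G6 at day 20 without control array Normal_102 (-0.37) and with G6 at day 5 without control array Normal_101 or Normal_102 or G6 array 15 (-0.36 to -0.27). With G6 at day 20, Bnip3 was lost without control array 95, 96, 100, Normal_101 or Normal_102 or G6 array 57, 59, 60, 61 or 63 (-0.63 to -0.56), and Adm without control array 99 or 100 or G6 array 60, 61 or 64 (0.54 to 0.63).

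**Figure D5:**
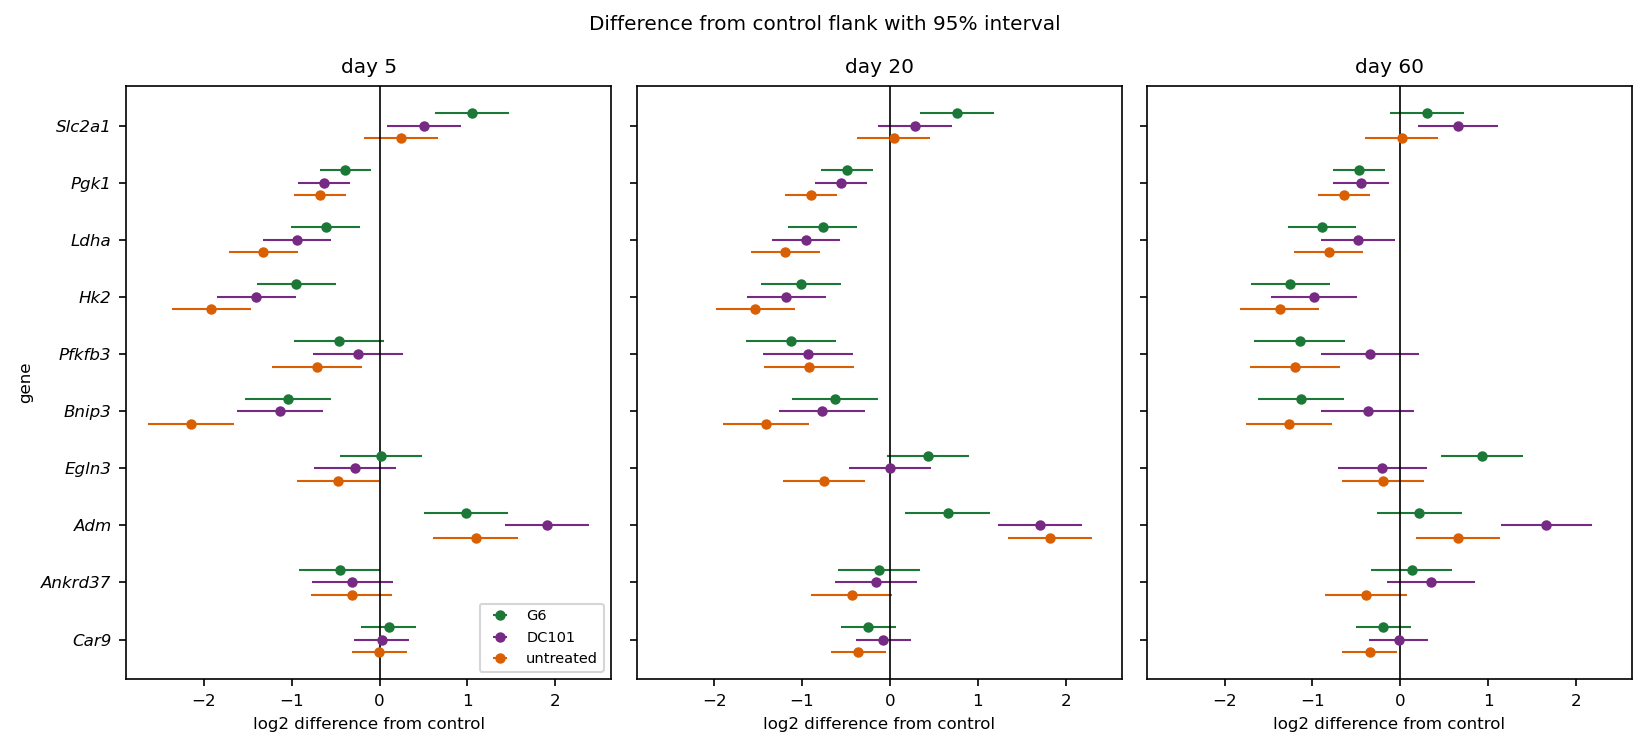
Log2 difference from control tissue (x axis) of each member (rows) for G6, DC101 and untreated tissue at days 5, 20 and 60 (panels), as points with 95% intervals from the fit. Slc2a1 with G6 at day 5 (1.05) lies to the right of 0 while untreated tissue was not called there, Adm lies to the right in most groups, and Hk2 lies to the left in all 9.

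Other genes of the pathway were counted in 3 further lists. Among 23 tested genes of glycolysis and glucose transport, 14 fell and 5 rose in untreated tissue at day 5 against control, where 23.6% of all probe sets fell and 26.5% rose. With G6 at day 5 against untreated tissue 9 rose and 0 fell, where 14.2% of all rose and 16.8% fell. Pgam2, the muscle form of phosphoglycerate mutase, differed by -3.15 in untreated tissue at day 5 against control (adjusted p = 1.5e-06) and by 1.98 with G6 at day 5 against untreated tissue (adjusted p = 0.0037). Slc2a4, the insulin-responsive transporter of muscle and fat, differed by -3.21 in untreated tissue (adjusted p = 1e-11). Ldhb rose by 1.67 with G6 at day 5 (adjusted p = 2.2e-08) and by 0.93 with DC101 at day 5 (adjusted p = 0.0032). With G6 at day 20 2 rose, Aldoc by 1.10 and the lactate transporter Slc16a1 by 1.06, where 2.87% of all probe sets rose and 5.02% fell. Hk3 fell by 0.62 with G6 at day 60, where 3.23% of all rose and 7.29% fell. The transporter Slc2a3 fell by 0.70 with DC101 at day 20, where 1.94% of all rose and 4.45% fell. None of 23 was called with DC101 at day 60, where 5.53% of all rose and 6.87% fell.

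Among 28 other hypoxia-inducible genes, which share Aldoc, Pdk1 and Pfkfb4 with the glycolysis list and Egln1 with the HIF list, both directions were called. With G6, 10 rose and 4 fell at day 5 (14.2% and 16.8% of all probe sets), 7 and 2 at day 20 (2.87% and 5.02%), and 2 and 2 at day 60 (3.23% and 7.29%). With DC101, 6 rose and 3 fell at day 5 (4.68% and 7.07% of all), 1 and 4 at day 20 (1.94% and 4.45%), and 2 and 0 at day 60 (5.53% and 6.87%). Their medians ran from 0.03 to 0.24 in these 6 comparisons, against -0.02 to 0.01 for all probe sets. The stress-induced mTOR inhibitor Ddit4 rose with DC101 by 1.15 at day 5 (adjusted p = 5.6e-06) and by 1.15 at day 60 (adjusted p = 6.6e-05), and the clock repressor Bhlhe40 by 0.85 at day 60 (adjusted p = 0.00028). With G6 the largest rises at day 5 were 1.66 for Rora (adjusted p = 1.1e-05) and 1.26 for Tmem45a (adjusted p = 0.004). At day 20 they were 1.27 for Tmem45a (adjusted p = 0.015) and 1.11 for Car12 (adjusted p = 0.016). The chemokine receptor Cxcr4 fell by 2.03 with G6 (adjusted p = 9.6e-08) and by 1.58 with DC101 at day 5 (adjusted p = 6.7e-05), and haem oxygenase Hmox1 fell by 2.29 with G6 (adjusted p = 1.8e-10) and by 1.505 with DC101 (adjusted p = 2.5e-05). At day 20 Cxcr4 differed by -0.97 with G6 and -1.39 with DC101, Angptl4 by -0.84 with G6 and Hmox1 by -0.89 with DC101. At day 60 with G6, P4ha1 differed by -0.59 and Ndrg1 by -0.50, while Higd1a rose by 0.57 and Kdm3a by 0.36. Higd1a rose by 0.68 with DC101 at day 20. All of these were called. Cxcr4 had been 3.58 higher in untreated tissue at day 5 than in control (adjusted p = 9.9e-17), and Vegfa, which the virus carries, 3.99 higher (adjusted p = 1e-13). Gbe1 and Pdk1 were lower there, with differences of -2.42 (limma adjusted p = 3.2e-13) and -1.69 (adjusted p = 9.4e-13). Of all probe sets 26.5% rose and 23.6% fell in that comparison. Gbe1 also differed from control by -1.73 at day 20 and by -1.51 at day 60, both called, while Ndufa4l2 rose by 2.55 at day 20.

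All 10 genes of the HIF machinery were tested. Epas1, which encodes HIF-2 alpha and is prominent in endothelium, fell with G6 by 1.05 at day 5 (adjusted p = 0.00079), by 0.99 at day 20 (adjusted p = 0.0084) and by 0.81 at day 60 (adjusted p = 0.027), and by 0.94 with DC101 at day 20 (adjusted p = 0.015). Hif3a fell with G6 at each day, by 0.88, 1.45 and 1.43. The hydroxylase gene Egln1 rose by 0.82 with G6 at day 5 (adjusted p = 1.9e-05). In untreated tissue at day 5 against control Hif1a rose by 1.003 (adjusted p = 1.1e-08), and Egln1 and the asparaginyl hydroxylase Hif1an fell by 1.37 and 0.98. Beside the same shares of all probe sets, the machinery counts were 4 of 10 risen and 2 fallen with G6 at day 5, 0 and 2 at days 20 and 60, and with DC101 1 and 0, 0 and 1, and 3 and 0 at days 5, 20 and 60. With G6 the 2 of 10 fallen at day 5 lie near the 16.8% of all probe sets that fell.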

How the data were processed

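Affymetrix arrays of 78 flank samples were used, 1 array per sample. The authors used MAS5 and GCOS 1.3, per the submitters' processing notes. Deposited values are linear signal intensities, 1 for each probe set, and the trimmed mean without the highest and lowest 2% was 1500.01 on every array. Arrays give no counting depth, and their number limits the precision. Probe sets carried 1 gene symbol in 34958 cases, several in 932 and none listed in 9211; only the first were used. At most 9 values were identical between any 2 arrays.

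From these, log2(signal + 16) was computed. A probe set was tested where its signal exceeded 331, the 40th percentile, on at least 6 arrays. One limma model (version 3.58.1, R 4.3.3; eBayes with trend) over all 10 groups gave 20 comparisons and 4 contrasts between days, two-sided, with Benjamini-Hochberg adjustment and a threshold of 0.05. The model was tested on simulated data, with changes put into few probe sets of G6 tissue at day 5. The noise was independent between probe sets and arrays, with the same SD in all groups. Against untreated tissue it recovered 36 of 100 changes of 0.5 and 72 of 100 changes of 1 in log2. It called 5 unchanged probe sets there. A difference that was not called is therefore not shown to be absent. In the real comparison 31% of all probe sets were called and arrays share tissue make-up, so these simulated rates may not carry over. Groups came from the labels. The members, the lists and the tests were chosen with earlier results of these data known. Named genes are the 10 members and, in each pathway list and each of 9 comparisons, genes with the largest called rises and falls. Alternatives were quantile normalization, a pseudocount of 1 or 64, all probe sets tested without a filter, 1 probe set per gene, array weights, only the groups compared, RNA 3' to 5' ratios or muscle level as covariates, adjacent arrays averaged, arrays left out and a 2-fold minimum; keratinocyte level as a covariate and 4 arrays left out were added after the data were seen. Promoters came from RefSeq (GRCm38.p6).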

Additional observations from a re-analysis of the deposited data

Results flagged for a closer look

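In 8 of the 100 combinations of member and group, 1 array lay further from the rest than Dixon's critical value allows, and chance alone gives about 5%. Slc2a1 was high on DC101 day 60 array 89 (13.11), Egln3 on untreated day 5 array 4 (12.14) and Ankrd37 on control array Normal_102 (10.22). Pgk1 was low on DC101 day 5 array 24 (14.43), Bnip3 on DC101 day 60 array 93 (13.03), Adm on untreated day 60 array 77 (10.14), and Car9 on G6 day 20 array 58 (7.70) and untreated day 20 array 54 (7.62). The effect on Adm differed between days in 2 tests, by -1.06 for G6 at day 20 against day 5 and by 1.12 for DC101 at day 60 against day 20.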

How the results depend on the processing

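No paired analysis was possible because groups share no replicate numbers. Differences of members were counted for untreated against control tissue and each antibody against untreated tissue, at days 5, 20 and 60. Of 1224 such differences recomputed under the alternatives, 1153 stayed on their side of the threshold, 45 lost a call, 26 gained one and 0 reversed. This count includes the other probe sets of the members, and the 90 differences under each pseudocount, which all stayed. It leaves out the 2-fold minimum and the fits without 1 array. Those fits ended further calls, as for Slc2a1 with DC101 at day 60 in 10 of 14. The other comparisons were not in this count. Among them, Bnip3 in G6 against DC101 at day 60 turned its sign with the RNA ratios as covariates. Egln3 with G6 at day 5 against control turned its sign with the keratinocyte level as a covariate. Counts of members called moved by over 1.5 times as follows, the cause not tested except where fewer arrays or a higher bar act by construction. Requiring a 2-fold change left 4 and 3 members called in untreated against control tissue at days 20 and 60, 1 and 2 in G6 against untreated tissue at days 5 and 20, and 1, 0 and 1 in DC101 against untreated tissue at days 5, 20 and 60. It left 0 and 2 in G6 against DC101 at days 5 and 60, 0 in untreated day 20 against day 5, 2, 2 and 3 in G6 against control tissue and 3, 2 and 1 in DC101 against control tissue. Leaving out 5 arrays gave 1 for G6 against untreated tissue at day 20, 0 and 2 for DC101 against untreated tissue at days 20 and 60, and 0 for the DC101 effect at day 60 against day 20. With the RNA ratios as covariates, 3 members were called in untreated against control tissue at day 60, 0 in G6 or DC101 against untreated tissue and 0 in G6 against DC101 at day 60. The same covariates gave 1 and 2 in untreated day 20 against day 5 and day 60 against day 20, 2 and 0 in G6 against control tissue at days 5 and 60, 0 for the G6 effect at day 20 against day 5 and 0 for the DC101 effect at day 60 against day 20. Averaging adjacent arrays gave 1, 0 and 2 in DC101 against untreated tissue at days 5, 20 and 60, 0 in G6 against DC101 at day 20, 1 in untreated day 20 against day 5, 0 for the G6 effect at day 20 against day 5 and 0 for the DC101 effect at day 60 against day 20. Array weights gave 4 in DC101 against untreated tissue at day 5, 2, 2 and 7 in G6 against DC101, and 1 and 4 for the DC101 effect at day 20 against day 5 and day 60 against day 20. The muscle level as a covariate gave 2 and 3 in DC101 against untreated tissue at days 20 and 60, 2 in G6 against DC101 at day 5, 1 and 2 in untreated day 20 against day 5 and day 60 against day 20, and 4 and 2 in G6 against control tissue at days 20 and 60. With no filter on low values, 3 were called in DC101 against untreated tissue at day 60. Fits on the compared groups alone gave 0 in G6 against untreated tissue at day 20, 5 and 0 in DC101 against untreated tissue at days 5 and 20, 3 and 0 in G6 against DC101 at days 5 and 20, 1 in untreated day 20 against day 5, 3 in DC101 against control tissue at day 20 and 0 for the DC101 effect at day 60 against day 20. No count moved so with a pseudocount of 1 or 64, quantile normalization or 1 probe set per gene. Leaving out each array in turn gave, at days 5, 20 and 60, 5 to 7, 7 to 8 and 5 to 7 members in untreated against control tissue, 4 to 5, 2 to 5 and 1 in G6 against untreated tissue, 2, 0 to 2 and 2 to 5 in DC101 against untreated tissue and 1 to 2, 0 to 1 and 2 to 5 in G6 against DC101. It gave 5 to 6, 5 to 7 and 6 in G6 against control tissue, 5 to 6, 6 and 2 to 4 in DC101 against control tissue, 0 to 2 in untreated day 20 against day 5, 1 to 2 in untreated day 60 against day 20, 0 to 1 and 0 for the G6 effects and 0 and 0 to 2 for the DC101 effects. Chosen after seeing the data, the keratinocyte level as a covariate gave 4, 3 and 1 members in G6 and 2, 1 and 5 in DC101 against untreated tissue, 0 in G6 against DC101 at day 20, 4, 3 and 5 in G6 against control tissue, 6, 4 and 2 in DC101 against control tissue and 2 in untreated day 60 against day 20. Leaving out the 4 arrays of low correlation gave 4, 5 and 1 in G6 and 2, 0 and 5 in DC101 against untreated tissue, and 2, 1 and 7 in G6 against DC101.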
